A study of Mus musculus with 2 samples.

Results

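The lysosomal genes described here are 35 genes of the 27998 in the count files, chosen by name as textbook lysosomal genes, with earlier results of these data known. They are 10 proteases (cathepsins and legumain), 5 glycosidases, 5 other soluble proteins, 7 membrane proteins, 7 subunits of the vacuolar proton pump and 1 transcription factor, and all 35 were found in both libraries. RNA was counted in single CD45+ leukocytes, separated with magnetic beads from tumors that TSA mammary cancer cells had formed under the skin of Balb/c mice. One library came from untreated mice, and the other from mice that drank water with 0.5% nicotinamide (NAM, a form of vitamin B3) for 10 days. Cells of 3 mice were pooled in each library. With a single pooled library per group no test of NAM was possible, and an effect of NAM and a difference between libraries cannot be told apart.

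Lysosomes digest what a cell engulfs and what it recycles. Cathepsins cut proteins, glycosidases remove sugars, and lipid-handling proteins such as Npc1, Npc2, Psap and Lipa process membranes and cholesterol, all at an acid pH that the vacuolar ATPase maintains by pumping protons through its membrane sector (Atp6v0 subunits) with energy from its cytosolic sector (Atp6v1 subunits). Macrophages are rich in these proteins. Osteoclasts, the bone-resorbing cells of the same lineage, also send the pump to the cell surface and secrete cathepsin K and tartrate-resistant acid phosphatase (Acp5) to dissolve bone. Tfeb is the transcription factor best known for switching on lysosomal genes, through DNA letters that contain CACGTG.

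These letters were searched in the RefSeq promoter sequences of GRCm38.p6 (250 bases before to 50 bases after each start), which held 29 of the 35 genes. CACGTG reads the same on both strands and was found in 10 of the 29 genes (34.5%), against 8.09% of 27025 genes and 7.15% of 32851 promoters. The longer TCACGTGA, which contains it, was found in 5 of the 29 (17.2%), against 1.12% of genes and 0.974% of promoters. With G before and C after these letters it was found in 0 of the 29, against 0.37% of genes and 0.326% of promoters. A match of letters is a description and does not show that a factor binds there. The 30-base windows below show 1 match in each of the 5 genes with the longer letters and in Ctsl, whose levels are followed further on, with CACGTG in capitals. The first capital lies at position -98 from the RefSeq start site in Ctsd, -12 in Ctsa, -45 in Mcoln1, -131 in Atp6v1a, -3 in Atp6v0d1 and -236 in Ctsl. These positions depend on the annotation. By the outer gene ends of GENCODE, the windows of Ctsd, Ctsa, Mcoln1, Atp6v1a and Ctsl lie inside the gene.
Ctsd, minus strand, chr7:142387908-142387937: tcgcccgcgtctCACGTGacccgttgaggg
Ctsa, plus strand, chr2:164833749-164833778: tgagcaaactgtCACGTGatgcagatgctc
Mcoln1, plus strand, chr8:3500462-3500491: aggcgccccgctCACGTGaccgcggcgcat
Atp6v1a, minus strand, chr16:44139373-44139402: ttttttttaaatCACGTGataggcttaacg
Atp6v0d1, minus strand, chr8:105566050-105566079: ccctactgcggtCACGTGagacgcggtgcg
Ctsl, minus strand, chr13:64370739-64370768: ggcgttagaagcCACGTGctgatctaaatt

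RNA molecules were counted as UMIs (unique molecular identifiers), 29161823 from 2922 untreated cells and 32090120 from 3276 NAM cells, and 11 cell barcodes occurred in both libraries. Of these UMIs the 35 genes took 2.63% (untreated) and 2.68% (NAM). Below, paired values give the untreated library first. Cells were assigned to 13 gates by the UMIs of marker genes, none of which is among the 35 genes, and 86.5% of untreated and 86.1% of NAM cells fell into a lineage gate. The macrophage gate (C1qa, C1qb and C1qc) held 1899 and 2113 cells and was divided into subsets that were high in Vcam1 and Dnase1l3 (486 and 519 cells), high in Mmp12 and Hmox1 (91 and 102), proliferating (142 and 153), interferon-high (54 and 64) or none of these (953 and 1120, called remaining). The 173 and 155 macrophages that met several of these gates were counted only among all macrophages. There were 98 and 123 osteoclast-like cells (Mmp9, Ocstamp, Dcstamp, Oscar), 188 and 204 Ly6c2 monocytes, 189 and 249 T cells, and 72 and 45 natural killer (NK) cells. In osteoclast-like cells the 10 macrophage markers summed to 3046 and 2948 CPM, against 38181 and 38516 CPM in macrophages. Part of this contrast was set by the gates, since C1qa, C1qb and C1qc defined the macrophages and cells that met both gates were left out. Of these markers Csf1r alone was higher in osteoclast-like cells (662 and 681 CPM, against 556 and 477 CPM in macrophages). The dendritic gates were small, with 40 and 41 Cd209a cells, 28 and 32 cDC1 (Xcr1, Clec9a) and 13 and 15 mature dendritic cells (Ccr7, Fscn1). The 10 leading genes of each gate included markers that had defined it, so they are no separate evidence of what the cells are. Levels are UMIs summed over the cells of a gate, per 1000000 UMIs of those cells (CPM), with exact 95% intervals that cover counting error only. Since 3′ capture differs between genes, a level is compared between cells for 1 gene and not between genes.

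The first comparison asked where in the leukocytes each gene was highest. In both libraries 11 of the 35 genes were highest in osteoclast-like cells, among them 5 of the 7 pump subunits, and 10 were highest in macrophages, among them 7 of the 10 cathepsins and legumain. The gate with the highest level was the same in both libraries for 30 of the 35 genes. For 18 genes the highest gate of each library was at least 3 times the median over the 8 lineage gates. These 18 include Ctsc and Lamp1, whose highest gate differed between the libraries. In both libraries the interval of the highest gate lay above those of all other lineage gates for 16 of the 30, namely 10 of the 11 genes of osteoclast-like cells (all but Atp6v1h), Ctsb, Ctss, Ctsz, Lgmn and Grn in macrophages, and Psap in cDC1. The other 14 had a highest gate that overlapped with at least 1 further gate in a library, so which gate leads lies within counting error. They include Lamp2 and Atp6v0d1, with the highest value in Ly6c2 monocytes, Man2b1, Laptm5 and Atp6v0c in Cd209a dendritic cells, Gusb in cDC1, and Ctsh and Cd63 in mature dendritic cells. For the 5 genes whose highest gate differed between the libraries (Ctsc, Neu1, Lamp1, Mcoln1, Tfeb) no order is read. Atp6v0c, the proton-carrying ring subunit, had only 64 and 41 UMIs in the whole libraries, and GENCODE lists the processed pseudogenes Atp6v0c-ps1 and Atp6v0c-ps2, so its reads may have been lost or shared and its order is uncertain. Cd63 has the pseudogene Cd63-ps.

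**Figure D1:**
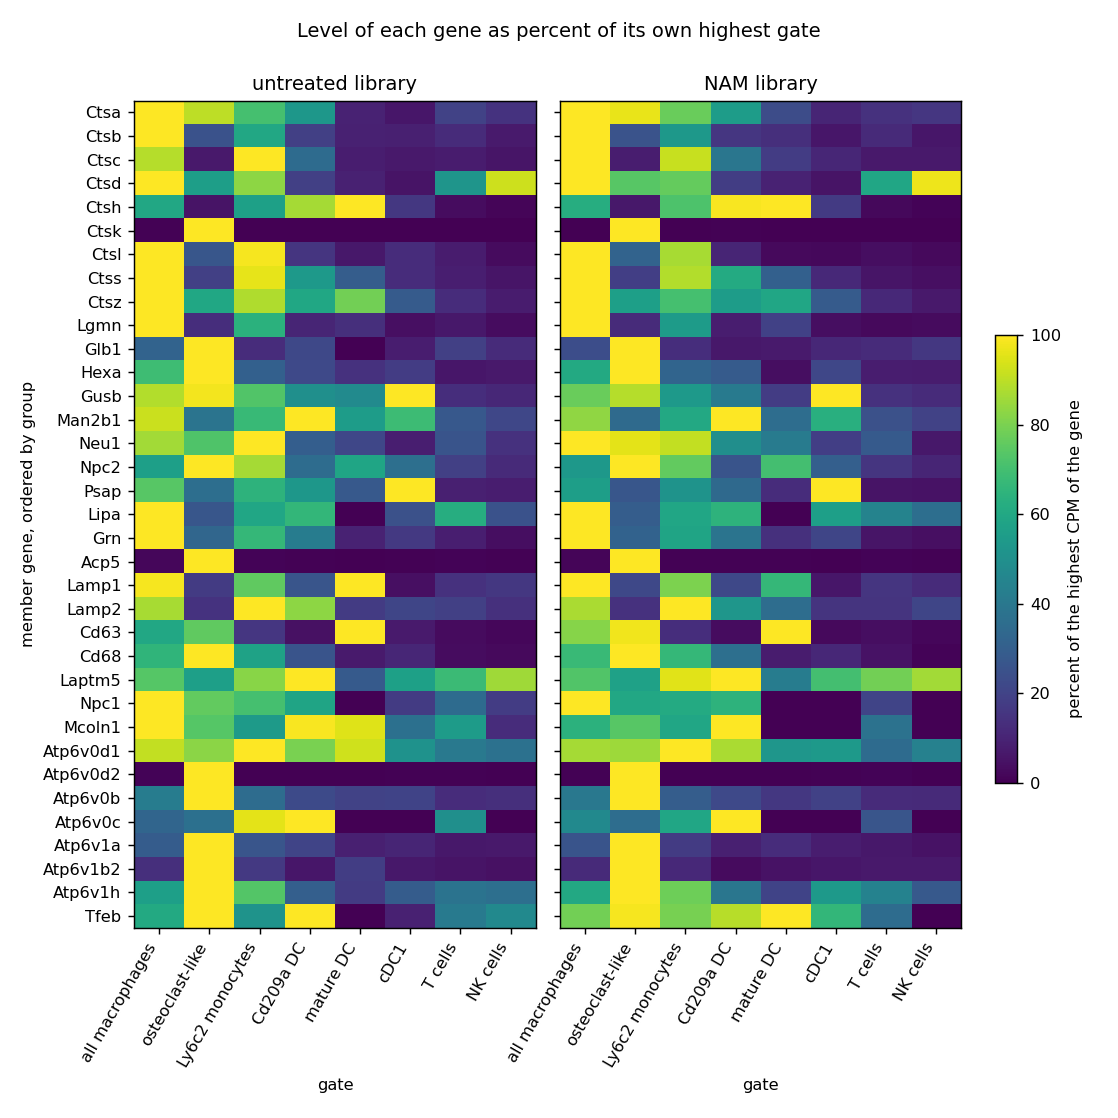
Level of each of the 35 genes (rows) in the 8 lineage gates (columns) as a percent of the gene's own highest CPM, in the untreated library (left) and the NAM library (right). Ctsk, Acp5 and Atp6v0d2 are bright only in osteoclast-like cells, most cathepsins are bright in macrophages and Ly6c2 monocytes, and Ctsd and Laptm5 stay bright in NK cells.

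Osteoclast-like cells had a lysosomal set of their own. Against all macrophages, 7 of the 34 genes tested were at least 2-fold higher in osteoclast-like cells in both libraries with intervals that left out no change (background 7.94% of 9695 genes), and 12 of the 34 were lower by the same rule (background 9.89%). The 7 were the enzymes Ctsk, Acp5 and Glb1 (beta-galactosidase) and the pump subunits Atp6v0d2, Atp6v0b, Atp6v1a and Atp6v1b2. The 12 were Ctsb, Ctsc, Ctsh, Ctsl, Ctss, Lgmn, Man2b1, Psap, Lipa, Grn, Lamp1 and Lamp2.

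Ctsk encodes cathepsin K, the collagen-cutting protease of osteoclasts (chr3:95499256-95509362, plus strand, GRCm38). It was at 7416 CPM (95% interval 7291 to 7543) in untreated and 7997 CPM (7872 to 8123) in NAM osteoclast-like cells. It was at 33.1 and 21.9 CPM in macrophages. The untreated library thus showed a 224-fold and the NAM library a 366-fold higher level in osteoclast-like cells, and the levels of the gates were far apart. After each cell was thinned to 3000 UMIs, 83.7% and 80.5% of osteoclast-like cells had a Ctsk UMI (88.8% and 85.4% unthinned). The share was 7.06% and 5.77% in macrophages (21.3% and 19.2% unthinned) and 6.35% and 9.24% in T cells (14.8% and 11.6% unthinned), which should lack the gene. The median depth was 17166.5 and 15701 UMIs in osteoclast-like cells, 9844 and 9852 in macrophages, and 4654 and 4400 in T cells. The level was 28.7 CPM (19.2 to 41.3) and 26.3 CPM (18.3 to 36.6) in T cells, 15.9 and 21.9 CPM in NK cells (7 and 5 UMIs) and 4.45 and 25.4 CPM in cDC1 (2 and 12 UMIs). The macrophage level of the untreated library was thus above that of cDC1 but overlapped with those of T and NK cells, and in NAM it overlapped with all of them. It is not read as expression, and the folds of this gene describe the distance to that low level.

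Acp5 (chr9:22126727-22135711, minus strand) was at 10281 and 10420.4 CPM in osteoclast-like cells and at 179 and 127 CPM in macrophages, 57.5-fold and 82.3-fold apart. T cells had 103 and 119 CPM of it, although in NAM 1 T cell held 49 of the 158 UMIs and 5 cells held 43.0%, and NK cells had 45.3 and 48.2 CPM (20 and 11 UMIs). The level was above that of T cells in the Vcam1 Dnase1l3 macrophages, with 215 CPM in the untreated and 165 CPM in the NAM library. Atp6v0d2 (chr4:19876841-19922605, minus strand), the d subunit known from osteoclasts and needed for the fusion of their precursors, was at 1089 and 1179 CPM in osteoclast-like cells, 8.93 and 6.81 CPM in macrophages and 6.94 and 9.77 CPM in T cells. The T-cell values rest on 7 and 13 UMIs, of which 1 cell held 5 in NAM, and at this depth the macrophage level could not be told from them.

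Glb1, which removes galactose from glycolipids and glycoproteins, was at 111 and 134 CPM in osteoclast-like cells and 35.4 and 31.8 CPM in macrophages, 3.14-fold and 4.21-fold apart.

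RNA of several pump subunits was higher in osteoclast-like cells than in macrophages, and the mix of the d subunits differed. Sums and shares over genes weigh each gene by its capture and are compared here only between cells. The 7 subunits summed to 3786 and 4178 CPM in osteoclast-like cells and to 959 and 994 CPM in macrophages. Of the UMIs of the alternative d subunits, Atp6v0d2 made up 86.1% (84.6 to 87.5) and 86.3% (85.0 to 87.6) in osteoclast-like cells, against 4.40% (3.79 to 5.08) and 3.46% (2.94 to 4.05) in macrophages. The other d subunit, Atp6v0d1, was at 176 and 187 CPM in osteoclast-like cells and at 194 and 189.9 CPM in macrophages, which was less than 2-fold apart. The difference in the d subunit therefore lay in Atp6v0d2.

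Among the subunits of the cytosolic sector, Atp6v1b2, which takes part in binding ATP, was at 943 and 1005 CPM in osteoclast-like cells and at 128 and 119 CPM in macrophages, 7.39-fold and 8.42-fold apart. The catalytic subunit Atp6v1a was at 391 and 458 CPM against 114 and 118 CPM, 3.42-fold and 3.87-fold apart. Atp6v1h, a regulatory subunit, was at 98.7 and 94.7 CPM against 55.8 and 57.1 CPM, short of 2-fold. In the membrane sector Atp6v0b was at 1087 and 1254 CPM against 457 and 501 CPM, 2.38-fold and 2.5-fold apart. All 6 subunits other than Atp6v0c could be tested, and 4 of them were past 2-fold.

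**Figure D2:**
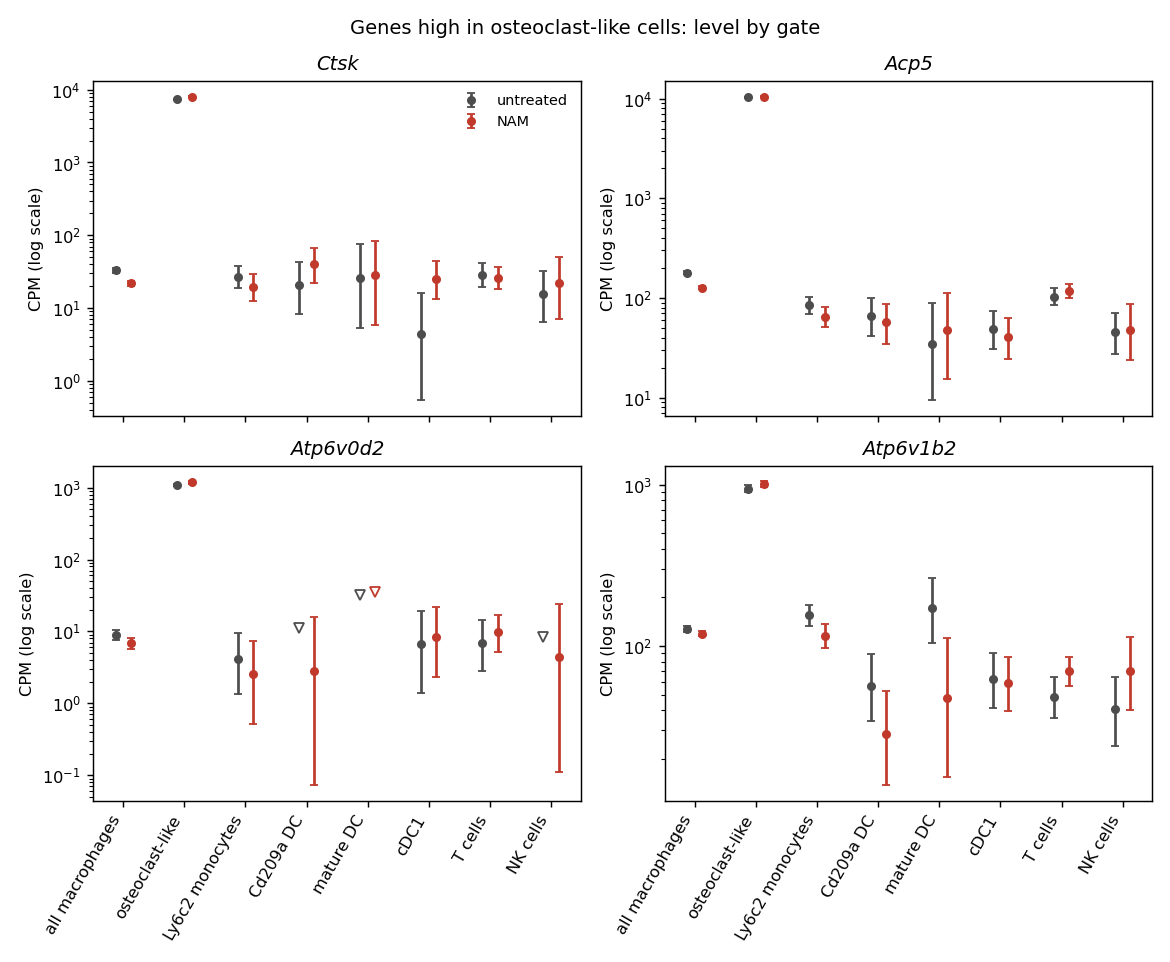
CPM (log scale) of Ctsk, Acp5, Atp6v0d2 and Atp6v1b2 in the 8 lineage gates of the untreated (grey) and NAM (red) libraries, with exact Poisson 95% intervals as bars and open triangles at the upper bound where no UMI was counted. Outside osteoclast-like cells, Ctsk and Atp6v0d2 lie at like low levels in macrophages and T cells, whereas Atp6v1b2 is at 128 and 119 CPM in macrophages and 48.5 and 69.9 CPM in T cells.

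The 12 genes lower in osteoclast-like cells included 5 cathepsins and Lgmn. Ctsc, which activates the granule proteases, was at 204 and 226 CPM there and at 2630.0 and 2836 CPM in macrophages, 12.9-fold and 12.6-fold lower. Ctsh, an aminopeptidase, was 11.7-fold and 9.70-fold lower. Lgmn, the asparagine-cutting protease, was at 352 and 327 CPM against 2723 and 2691 CPM, 7.74-fold and 8.23-fold lower. Ctss, which trims the invariant chain of MHC class II, was 5.26-fold and 5.40-fold lower, and Ctsb was 3.95-fold and 3.91-fold lower. The main structural proteins of the lysosomal membrane were lower as well, Lamp1 by 5.66-fold and 4.57-fold and Lamp2 by 5.95-fold and 6.13-fold. Lamp1 was at 174 and 201 CPM against 985 and 919.8 CPM in macrophages, and Lamp2 at 43.3 and 41.7 CPM against 257 and 256 CPM. Grn, which encodes the progranulin precursor, was at 504 and 449.5 CPM against 1521 and 1438 CPM, 3.02-fold and 3.20-fold lower. Lipa, with the fewest UMIs in the group of other soluble proteins, was at 14.4 and 14.3 CPM against 54.1 and 48.6 CPM. Other genes were within 2-fold in both libraries, among them Ctsa (493 and 559.5 CPM against 547 and 578), Cd63 (1659.7 and 1758 against 1319 and 1474), Cd68 (1206 and 1236 against 790.1 and 836), Hexa (724 and 749.9 against 500.5 and 455) and Npc2 (2891 and 3262 against 1635 and 1739).

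Within the macrophages the subsets differed in a pair of cathepsins. Of 33 genes tested, Ctsd and Ctsl were at least 2-fold higher in Mmp12 Hmox1 than in Vcam1 Dnase1l3 macrophages in both libraries (background 1.86% of 6839 genes), and 0 were 2-fold lower (background 1.48%). Ctsl, the protease cathepsin L (chr13:64359337-64370890, minus strand), was at 2016 and 2977 CPM in the Mmp12 subset against 645 and 538 CPM in the Vcam1 subset, 3.12-fold and 5.53-fold apart. Ctsd, the aspartic protease cathepsin D (chr7:142375911-142388038, minus strand), was at 1579 and 1809 CPM against 636 and 532 CPM, 2.48-fold and 3.40-fold apart. Both libraries gave intervals that did not overlap, and no other subset reached the Mmp12 subset in either gene. Ctsl was also among the 10 leading genes of the Mmp12 subset against all other cells.

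Ctsc, Ctsh, Ctss, Lgmn, Man2b1, Acp5 and Cd63 were higher in the Vcam1 subset in both libraries by less than 2-fold, with intervals that left out no change. By the same rule Ctsb, Npc2, Lipa, Lamp2 and Cd68 were higher in the Mmp12 subset, Lipa, an acid lipase, with log2 ratios of 0.58 and 0.47 between the subsets and the others with smaller ones. Ctsh was at 669 and 627 CPM in the Vcam1 subset and at 425 and 421 CPM in the Mmp12 subset, and Man2b1, a mannosidase, was at 251 and 256 CPM against 169 and 146 CPM. Psap, the precursor of the saposins that help degrade sphingolipids, was at 3659 and 3815 CPM in the Vcam1 subset, 3553 and 3643 CPM in the Mmp12 subset and lowest among the subsets in proliferating macrophages, with 1895 and 1796 CPM. Cd63, a tetraspanin of late endosomes, was likewise lowest in proliferating macrophages, at 822 and 776 CPM, and highest in the Vcam1 subset, at 1629 and 1862 CPM. Between proliferating and remaining macrophages 0 of 34 genes were 2-fold apart in either direction (background 4.6% higher and 0.721% lower).

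**Figure D3:**
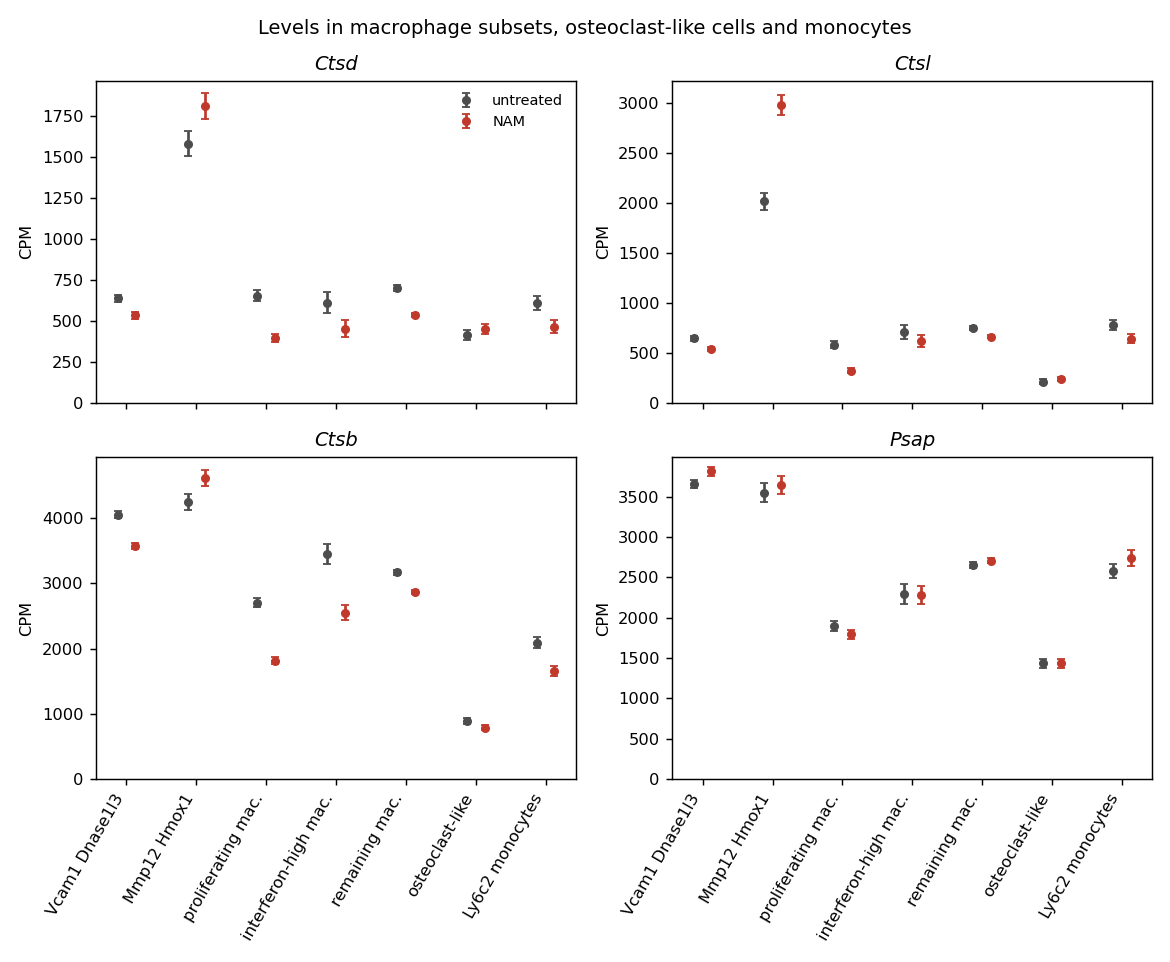
CPM of Ctsd, Ctsl, Ctsb and Psap in the macrophage subsets, osteoclast-like cells and Ly6c2 monocytes of the untreated (grey) and NAM (red) libraries, with exact Poisson 95% intervals. Ctsd and Ctsl stand highest in the Mmp12 Hmox1 subset, and Ctsd is lower in NAM in every other macrophage subset and in monocytes.

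Between Ly6c2 monocytes and macrophages few of the lysosomal genes were far apart, a share no larger than among all genes. Of 34 genes tested, 0 were 2-fold higher (background 3.4%) and only Cd63 was 2-fold lower in both libraries (background 5.09%), with 345 and 232 CPM in monocytes against 1319 and 1474 CPM in macrophages. Both shares were near or below the background. Ctsc, at 2959 and 2600 CPM, and Ctss, at 3727 and 3787 CPM, were within 2-fold of the macrophage level. The macrophage markers, of which C1qa, C1qb and C1qc set these gates apart, summed to 7045 and 7563 CPM in the monocytes.

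Dendritic cells had lower levels of many of the genes, with exceptions. In cDC1 21 of 34 genes were 2-fold lower than in macrophages in both libraries (background 7.34%), in mature dendritic cells 14 of 34 (background 3.19%) and in Cd209a dendritic cells 12 of 34 (background 3.64%), while 0 were 2-fold higher in any of these gates (background 3.58%, 3.83% and 2.9%). Of the genes tested in cDC1, only Psap was above its macrophage level in both libraries with intervals that left out no change, with 3986 and 5332 CPM against 2952 and 2991 CPM. Gusb, a glucuronidase, was at 180.1 and 216 CPM in cDC1 against 159.7 and 167 CPM in macrophages, and the interval of its log2 ratio between the gates spanned 0 in the untreated library (-0.16 to 0.49) but not in NAM (0.07 to 0.65). In the same cells Ctsd had 18 and 15 UMIs, its lowest level among the 8 lineage gates in both libraries. In mature dendritic cells Cd63 was at 2195 and 1798 CPM, from 255 and 188 UMIs, and Ctsh at 878 and 832 CPM, from 102 and 87 UMIs. Since these came from 13 and 15 cells, each value rests on few cells.

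T cells had low levels of most of the enzymes, and their levels were set beside those of C1qa, C1qb and C1qc, which T cells should lack. Of 34 genes, 23 were 2-fold lower in T cells than in macrophages in both libraries (background 11.1%) and 0 were 2-fold higher (background 10.8%). C1qa, C1qb and C1qc were found in T cells at 2.51% to 2.68% of the macrophage level in the untreated library and at 2.16% to 2.57% in the NAM library. For 31 of the 35 genes the T-cell share of the macrophage level was above this in both libraries, interval against interval, and Ctsh, Ctsl, Lgmn and Atp6v0c were the 4 that were not. Cells high in C1qa, C1qb and C1qc had been left out of the T cells as mixed, and the shares of the macrophage genes Apoe (4.12% and 3.05%) and Pf4 (5.22% and 3.19%) were higher than theirs. Against the highest upper bound of all 5 macrophage genes, that of Pf4 at 6.80% and 4.35%, 28 of the 35 genes were above, and Hexa, Cd63 and Cd68 joined those that were not. For Ctsk, Acp5 and Atp6v0d2 such a comparison with macrophages shows nothing of T cells, since their UMIs lay mainly in osteoclast-like cells. Lgmn was at 6.59% and 2.49% of the macrophage level in T cells, Cd63 at 4.81% and 4.59%, and Ctsl at 7.80% and 3.67%.

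Laptm5 in T and NK cells, and Ctsd in NK cells, were at levels near those of macrophages. Laptm5, a lysosomal membrane protein of blood cells that limits T-cell receptor levels, was at 561 and 628 CPM in T cells and 705 and 688 CPM in NK cells, against 605 and 582 CPM in macrophages. Ctsd was at 383 and 359 CPM in T cells, 52.2% (47.1 to 57.7) and 59.2% (53.9 to 64.8) of the macrophage level, and at 679.8 and 591 CPM in NK cells, the latter 92.5% (82.3 to 104) and 97.4% (81.6 to 115) of the macrophage level. A Ctsd UMI was seen in 79.2% and 80.0% of NK cells after thinning, and C1qa, C1qb and C1qc were at 1.80% to 3.42% of the macrophage level in NK cells. NK and T cells were within 2-fold of each other in Ctsd. Of 22 genes tested between them, 0 were higher (background 1.83%) and Acp5 was lower in NK cells (background 3.21%). In NAM 1 T cell held 49 of the 158 Acp5 UMIs of T cells, and whether this call holds without that cell was not tested.

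**Figure D4:**
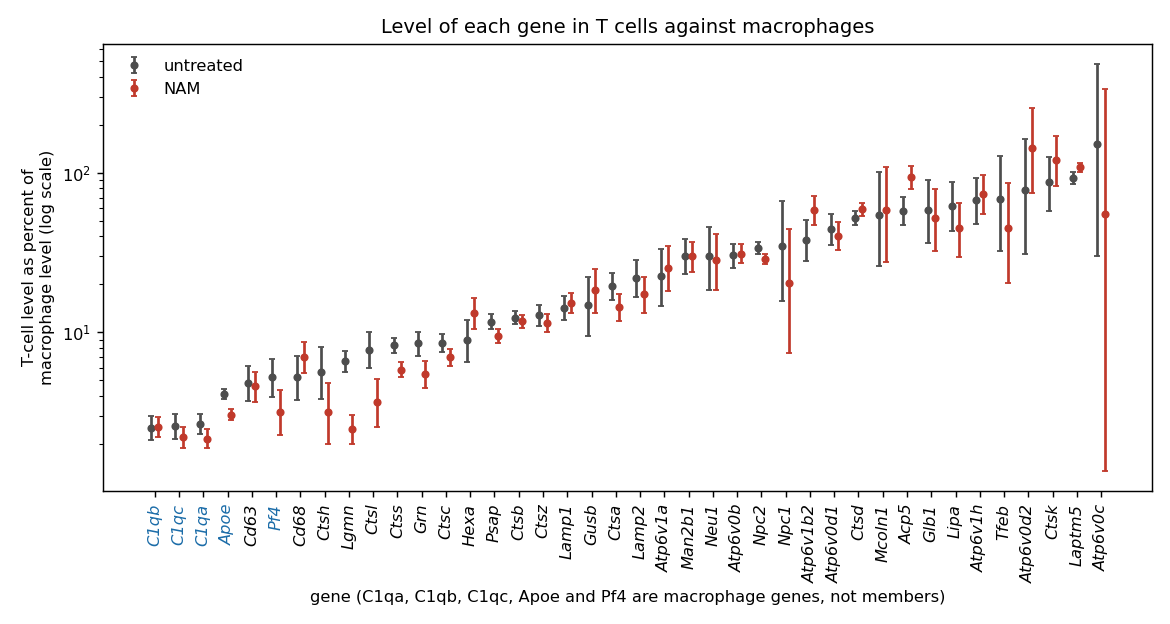
Level of each gene in T cells as a percent of its level in macrophages (log scale) in the untreated (grey) and NAM (red) libraries, with exact conditional 95% intervals, for the 35 genes and the 5 macrophage genes C1qa, C1qb, C1qc, Apoe and Pf4 (blue names). C1qa, C1qb and C1qc lie at 2.16% to 2.68%, Lgmn at 6.59% and 2.49%, and Laptm5 near the macrophage level at 92.7% and 108%.

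The comparison of NAM with untreated asked whether the treatment went with a different lysosomal program in the same kind of cell. A gene was called past the fold when its CPM in one library was at least 5/4 of that in the other (a log2 ratio of 0.32 or more, or -0.32 or less), with an interval that left out no change and at least 50 UMIs over both. In all macrophages 0 of the 35 genes were higher in NAM by this rule (background 3.68% of 10714 genes) and 4 were lower (background 10.6%, against 11.4% of the 35), so their share was near the background. The median log2 ratio of the 35 genes was -0.02 and that of all genes tested -0.03. The sums of the groups were within a few percent of each other in the libraries, with log2 ratios of 0.02 for cathepsins and legumain (16705 and 16912 CPM), -0.05 for glycosidases (979.8 and 946 CPM), 0.0003 for other soluble proteins (6341 and 6342 CPM), 0.04 for membrane proteins (3999.5 and 4103 CPM) and 0.05 for pump subunits (959 and 994 CPM). Tfeb itself was at 14.5 and 15.1 CPM (log2 0.06, interval -0.18 to 0.29).

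The 4 lower genes in macrophages were Ctsk, Acp5, Mcoln1 and Atp6v0d2. Ctsk was at 33.1 CPM in untreated and 21.9 CPM in NAM macrophages (log2 -0.60, interval -0.77 to -0.42), but 5 cells held 29.3% of its macrophage UMIs in the untreated library, and without the 5 highest cells of each library the ratio was -0.15. Read from thinned cells, the gate gave -0.07. Acp5 was at 179 and 127 CPM (log2 -0.50, interval -0.57 to -0.43), and it was -0.45 without its 5 highest cells and -0.32, just short of the fold, with gates read from thinned cells. Atp6v0d2 was at 8.93 and 6.81 CPM (log2 -0.39, interval -0.71 to -0.07), from 178 and 151 UMIs, and fell just short of the fold, at -0.32, without the 2.5% of cells with most UMIs or with the macrophage subsets of both libraries weighted alike. The 7 osteoclast-like markers that are not among the 35 genes summed to 47.8 CPM in untreated and 39.5 CPM in NAM macrophages, with 1 of the 7 at 0 in each library, and in T cells to 78.3 and 71.4 CPM with 2 at 0. Their part in the ratios of Ctsk, Acp5 and Atp6v0d2 was not tested. Mcoln1, the calcium channel of the lysosomal membrane, was at 18.1 and 12.9 CPM (log2 -0.49, interval -0.72 to -0.27), from 361 and 285 UMIs, and stayed between -0.46 and -0.54 under each other processing.

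Ctsd was lower in NAM across several gates although it fell short of the fold in all macrophages, at 735 and 607 CPM (log2 -0.28, interval -0.31 to -0.24). In proliferating macrophages it was at 652 and 393 CPM (log2 -0.73), in interferon-high macrophages at 611 and 451 CPM (log2 -0.44) and in remaining macrophages at 699.6 and 536 CPM (log2 -0.39). It was also lower in Ly6c2 monocytes, at 609 and 463 CPM (log2 -0.40). In the Vcam1 subset, at 636 and 532 CPM (log2 -0.26), it fell short of the fold. In the Mmp12 subset, where the gene was highest, the values were 1579 and 1809 CPM (log2 0.20, interval 0.10 to 0.29), and in osteoclast-like cells 412 and 449 CPM (log2 0.13, interval -0.02 to 0.27). Ctsd was thus past the fold in 4 of the 10 separate gates in which it could be tested, each time lower in NAM, and higher in none. The value of interferon-high macrophages did not hold, with 0.12 when gate thresholds were doubled and 0.026 with gates read from thinned cells, and that of remaining macrophages fell short of the fold, at -0.29, with thinned gates. Weighting the macrophage subsets of both libraries alike left the ratio in all macrophages at -0.27.

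Other lower genes in the subsets included cathepsins and Acp5. Ctsb, a broad cysteine protease, was at 2705 and 1812 CPM in proliferating (log2 -0.58), 3447 and 2550.4 CPM in interferon-high (log2 -0.43) and 2091 and 1649.9 CPM in Ly6c2 cells (log2 -0.34, and -0.18 with thinned gates). Ctsl was at 582 and 321 CPM in proliferating macrophages (log2 -0.86), and Lgmn at 2614 and 2032 CPM (log2 -0.36, but -0.21 with doubled thresholds and -0.20 with thinned gates). Mcoln1 in proliferating macrophages had 40 and 25 UMIs (log2 -0.80, and -0.16 with thinned gates). Proliferating macrophages had a median log2 ratio of -0.12 over the 32 genes tested, against 0.01 for all genes, and 25 of the 32 were below 0. The sum of their cathepsins and legumain was 14227 and 12208 CPM (log2 -0.22, interval -0.24 to -0.20), while that of the pump subunits had a log2 ratio of -0.01 (interval -0.10 to 0.08). The lower genes in proliferating macrophages were Ctsb, Ctsd, Ctsl, Lgmn, Hexa, Acp5 and Mcoln1, 7 of 32 tested (21.9%, background 7.48%), and none was higher (background 5.62%). The 7 became 4 with thinned gates and 3 at 1.5-fold. The 10 macrophage markers, none of them at 0, summed to 26764 and 24864 CPM in proliferating macrophages, and the 4 proliferation markers to 1621 and 1676 CPM. The part of these markers in the ratios of this gate was not tested. Of the other lysosomal genes described further on, 11 of 53 were lower in this gate (20.8%). Among the 7, Hexa, a hexosaminidase subunit, was just past the fold (445 and 354 CPM, log2 -0.33), and Acp5 (127 and 93.1 CPM, log2 -0.44) came to -0.21 without the 2.5% of cells with most UMIs. In interferon-high macrophages, a gate of 54 and 64 cells, they were Ctsb, Ctsd and Acp5, 3 of 28 (background 6.79%), again with none higher (background 6.72%). The 7 monocyte markers, 1 of them at 0 in each library, summed to 685 and 1037 CPM in this gate, and their part in these ratios was not tested. Acp5 was at 232 and 95.4 CPM there (log2 -1.28), from 137 and 66 UMIs, of which 5 cells held 54.7% and 40.9%, and at -0.46 with thinned gates. In remaining macrophages the lower genes were Ctsd, Ctsk, Acp5, Mcoln1 and Atp6v0d2, 5 of 34 (background 9.79%; higher 0, background 3.96%). Ctsk was at 42.8 and 21.5 CPM there (log2 -0.99), and 5 cells held 52.0% of its UMIs in the untreated library, without which the ratio was -0.031. In the Vcam1 subset Acp5 alone was lower, 1 of 33 (log2 -0.39, but -0.14 with thinned gates, background 9.73%; higher 0, background 4.47%).

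In the Mmp12 subset 3 of 31 genes tested were past the fold higher in NAM (9.68%, background 6.28%), Ctsl and the pump subunits Atp6v0b and Atp6v1a. This share was near the background, and its difference from the 0 of the other subsets was not tested. Ctsl was at 2016 and 2977 CPM (log2 0.56, interval 0.48 to 0.64), from 2102 and 3582 UMIs in 91 and 102 cells. It came to 0.28 when the gate thresholds were doubled and to 0.063 with gates read from thinned cells, and 5 cells held 27.4% of its UMIs in untreated and 27.9% in NAM, so that its size depends on which cells are counted. Atp6v1a was at 138 and 189.5 CPM (log2 0.46, interval 0.15 to 0.77), and Atp6v0b, at 447 and 563 CPM (log2 0.33, interval 0.16 to 0.51), was just past the fold. With thinned gates, which left 21 and 24 cells in this subset, the count of higher genes was 0. Atp6v1a then had a log2 ratio of 0.45 (interval -0.09 to 1.00) and Atp6v0b of 0.26 (-0.09 to 0.61), both with wider intervals from fewer UMIs, and the latter also below the fold. Acp5 was lower, at 143 and 109 CPM (log2 -0.39, interval -0.74 to -0.04), 1 of 31 (background 8.31%). Ctsa, the carboxypeptidase that protects beta-galactosidase and neuraminidase, was at 654 and 805 CPM (log2 0.30, interval 0.16 to 0.44), short of the fold. The Mmp12 and Hmox1 UMIs that defined the subset summed to 3909 and 4393 CPM in it. In all macrophages Mmp12 was higher in NAM (166 and 279 CPM) and Hmox1 lower (284 and 229 CPM), so the mix of cells in the subset may differ between the libraries. The part of these markers in the ratios of the subset was not tested.

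**Figure D5:**
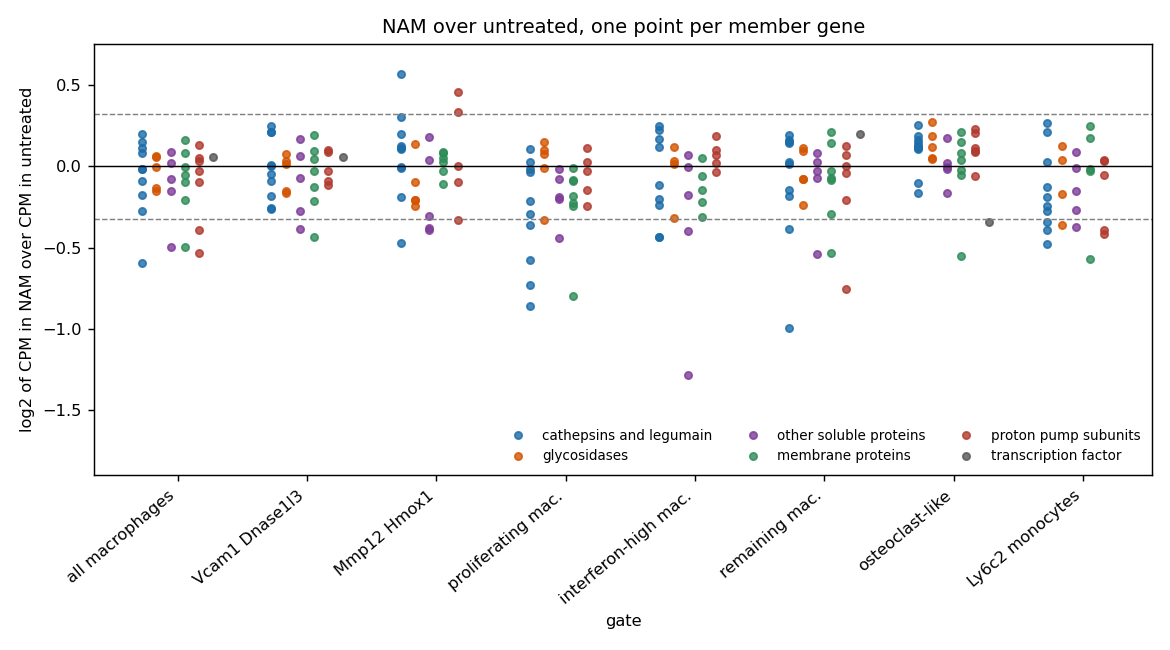
Log2 of the CPM in NAM over the CPM in untreated for each of the 35 genes with at least 50 UMIs (points, colored by group) in all macrophages, the macrophage subsets, osteoclast-like cells and Ly6c2 monocytes. Dashed lines mark log2 ratios of 0.32 and -0.32. Points of osteoclast-like cells gather around a median of 0.10, those of Ly6c2 monocytes around -0.13, and the lowest points of the subsets are single genes such as Ctsk in remaining and Acp5 in interferon-high macrophages.

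In osteoclast-like cells the set that marks them was at like levels in both libraries. Of 34 genes, 0 were past the fold higher (background 4.96%) and 0 lower (background 8.36%). Ctsk had a log2 ratio of 0.11 (interval 0.08 to 0.14), Acp5 of 0.02 (-0.01 to 0.05), Atp6v0d2 of 0.11 (0.03 to 0.20) and Atp6v1b2 of 0.09 (-0.00 to 0.19). The median ratio of the 34 was 0.10, against -0.01 for all genes tested in the gate, and 10 of the 34 were below 0. The sum of the pump subunits had a log2 ratio of 0.14 (interval 0.10 to 0.19), above those of the cathepsins (0.09), glycosidases (0.09), membrane proteins (0.06) and other soluble proteins (0.04). When each cell had the same weight, 4 genes were past the fold higher, so a count of 0 depends on this choice. In this gate the 4 proliferation markers summed to 347 and 128 CPM and the 7 monocyte markers to 98.7 and 222 CPM, with 1 of the latter at 0 in each library, and their part in these ratios was not tested.

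In Ly6c2 monocytes the median ratio was below 0, as in proliferating macrophages. Of 29 genes, Ctsb, Ctsd, Cd63 and Atp6v1b2 were lower past the fold (background 9.61%) and 0 were higher (background 6.47%), with a median log2 ratio of -0.13 against -0.01 for all genes. Cd63 was at 345 and 232 CPM (log2 -0.57) and Atp6v1b2 at 155 and 116 CPM (log2 -0.42). The count of lower genes depended on the processing, as given further on, and came to 0 at 1.5-fold. The median depth of the monocytes was 5782.5 UMIs in untreated and 5266 UMIs in NAM. The 7 monocyte markers summed to 8216 and 8805 CPM in these cells and the 4 proliferation markers to 85.3 and 35.5 CPM. Mmp12 and Hmox1 summed to 310.1 and 349 CPM, with Mmp12 at 38.6 and 81.2 CPM and Hmox1 at 272 and 267 CPM. The part of these markers in the ratios of this gate was not tested.

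In lymphocytes and dendritic cells fewer genes reached 50 UMIs. In T cells Lgmn (179 and 66.9 CPM, log2 -1.42), Ctsl (61.4 and 27.1 CPM, log2 -1.18), Ctsh, Ctss and Grn were lower past the fold, 5 of 28 (17.9%, background 7.2%), and Atp6v1b2 was higher, at 48.5 and 69.9 CPM (log2 0.53, background 6.35%). In NAM, however, 1 T cell held 16 of its 93 UMIs and 5 cells held 33.3%, and with thinned gates the ratio was 0.25, short of the fold. The 7 NK markers, none of them at 0, summed to 1211 and 1855 CPM in T cells. Xcl1 was at 295 and 729 CPM and Klrd1 at 619 and 797 CPM. Gzma (117 and 102 CPM) and Eomes (59.4 and 33.8 CPM) were the ones lower in NAM. The part of these markers in the ratio of Atp6v1b2 was not tested. Lgmn, Ctsl and Ctsh are among the genes whose T-cell share was not above that of C1qa, C1qb and C1qc. In the untreated library 5 T cells held 51.4% of the Lgmn UMIs, 53.2% of those of Ctsl, 53.3% of Ctsh and 37.4% of Grn, with up to 59 Lgmn and 23 Ctsl UMIs in 1 cell. Without the 5 highest cells of each library Lgmn came to -0.71 and Ctsl to -0.46, and 2 genes were lower past the fold in place of 5. With cells of several lineages kept, Lgmn came to -0.0036, Ctsl to 0.41, Ctss to 0.44, Ctsh to 0.29 and Grn to 0.14. The counts then became 0 lower and 11 higher. The 10 macrophage markers, none of them at 0, summed to 1365 and 1035 CPM in T cells, so their sum was lower in NAM as well. Apoe, the largest of them, was at 678 and 468 CPM, and C1qb alone was higher in NAM (132 and 153 CPM). The part of these markers in the lower values was not tested. In NK cells 0 of 13 genes were past the fold either way (background 5.62% higher and 5.67% lower). In cDC1 Ctsc and Psap were higher, 2 of 19 (background 11.6%), and Ctsb, Ctsl and Cd63 lower (background 7.56%). Cd63 was at 156 and 44.5 CPM there (log2 -1.81), and at -0.35 with cells of several lineages kept. The 5 markers of mature dendritic cells summed to 665 and 125 CPM in cDC1, with 0 and 3 of them at 0, and the 10 macrophage markers to 1267 and 931 CPM, and their part in these ratios was not tested. In mature dendritic cells Ctsc and Npc2 were higher, 2 of 11 (background 12.8%), and Psap and Lamp1 lower (background 10.5%). In this gate the 5 markers of mature dendritic cells summed to 11730 and 9258 CPM, the 3 interferon markers to 1325 and 698 CPM, the 7 monocyte markers to 491 and 736 CPM, the 4 Cd209a markers to 456 and 229.5 CPM and the 7 NK markers to 34.4 and 172 CPM, and their part was not tested. In Cd209a dendritic cells Cd68 was higher, 1 of 22 (background 7.49%), and Ctsb and Lamp2 lower (background 14.1%). The macrophage markers summed to 2624 and 1811 CPM in Cd209a dendritic cells and the monocyte markers to 2908 and 1594.0 CPM, and their part was not tested either. These gates hold 13 to 41 cells, and 5 cells held 96.2% of the Ctsc UMIs of mature dendritic cells in NAM, without which the ratio turned from 1.07 to -1.71. Ctsb in Cd209a dendritic cells turned from -0.44 to 0.23 in the same way.

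In all macrophages and in every separate gate in which they could be tested, 13 genes were not called past the fold, some of them with ratios beyond it whose intervals included no change, such as Lipa (down to -0.63) and Laptm5 (up to 0.53). Of the 12 separate gates, Ctsz and Laptm5 could be tested in 12, Atp6v0d1 in 11, Ctsa, Gusb and Man2b1 in 10, Lipa and Atp6v1h in 8, Neu1 in 7, Glb1 and Npc1 in 5, Tfeb in 3 and Atp6v0c in 0. The genes with CACGTG in the promoter had a median log2 ratio in macrophages of -0.06 over 10 genes (from -0.49 to 0.13), and the other 19 with a promoter sequence had a median of 0.02 (from -0.60 to 0.19). In osteoclast-like cells the medians were 0.17 over 10 genes (from -0.11 to 0.27) and 0.05 over 18 (from -0.34 to 0.18), and in Ly6c2 monocytes -0.15 over 8 and -0.13 over 17. The ranges overlapped in each of these gates, and the order of the medians was not the same in them.

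Of 64 other lysosomal genes and cathepsin inhibitors, 61 could be tested in macrophages, of which 4 were lower in NAM and 1 was higher, by the same rule and against the same background. The lower genes were Ctsf (26.1 and 20.2 CPM), Arsb (30.3 and 19.2 CPM), Gm2a (366 and 245 CPM) and Igf2r (9.23 and 6.27 CPM), and the higher gene was Cst7, a cystatin that inhibits cathepsins (10.7 and 15.0 CPM, log2 0.49). Gm2a, which presents the ganglioside GM2 for breakdown, had a log2 ratio of -0.58 (interval -0.63 to -0.53), further below 0 than that of any of the 35 genes except Ctsk. The median over the 61 genes was -0.02.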

How the data were processed

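The files hold unnormalised UMI counts, deposited by the authors, who made them from 10x 3′ libraries with Cell Ranger on mm10 (annotation version not given in the sources used here). The study's filter was 1000 genes, 3000 UMIs and at most 10% mitochondrial UMIs, and the cells with fewest UMIs had 3018 (untreated) and 3001 (NAM). The 35 genes and all lists were chosen with earlier results of these data known, and gate thresholds were set after seeing marker distributions. Gates were sums of marker UMIs (for example C1qa, C1qb and C1qc of 30 or more for macrophages, and Mmp9, Ocstamp, Dcstamp and Oscar of 5 or more for osteoclast-like cells). The Mmp12 subset was read from Mmp12 and Hmox1 (10 or more), since 1 marker listed for it is not reported here. Cells that met gates of several lineages (69 untreated, 74 NAM) and cells rich in haemoglobin or neutrophil RNA (4 and 19) were left out, as were 322 and 361 cells in no gate. Doublets were not called, and the effect of leaving out the cells with most UMIs was computed. The markers Trac, Trbc1 and Trbc2 had no match.

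Counts were summed per gate and library. Intervals are exact 95% intervals (Poisson for CPM, conditional binomial for ratios, Clopper-Pearson for shares) of counting error. No p-value was computed, since each group is a single library. Medians used a pseudocount of 0.5 UMIs. Cells were thinned to 3000 UMIs with seed 1. All 35 genes are accounted for. Values were given for genes past the fold in macrophages or in 2 or more other gates, for those whose highest gate was at least 3 times their median gate, and for the gene with most and with fewest UMIs of each group. Other genes with values were chosen after their values were seen. Steps were tested on simulated data. Coordinates are from GENCODE vM21 and promoters from RefSeq, both GRCm38. Python 3.11.15, NumPy 2.4.6, SciPy 1.17.1, pandas 2.3.3 and matplotlib 3.10.9 were used. Alternatives added after seeing the data were, for comparisons between gates, gates read from thinned cells, mixed cells kept and the deepest cells left out. The comparison of T cells with all 5 macrophage genes was added likewise.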

Additional observations from a re-analysis of the deposited data

Results flagged for a closer look

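Ctsl, Psap and Atp6v1b2 were past the fold in opposite directions in different gates, which share no cells, and the differences between the gates were not tested. Ctsl had a log2 ratio of NAM over untreated of 0.56 in Mmp12 Hmox1 macrophages, against -0.86 in proliferating macrophages, -2.56 in cDC1 (45 and 8 UMIs, of which 5 cells held 88.9% in the untreated library) and -1.18 in T cells (62 and 36 UMIs, of which 5 cells held 53.2% in the untreated library). Psap had 0.42 in cDC1 and -0.71 in mature dendritic cells (129 and 71 UMIs). Atp6v1b2 had 0.53 in T cells (49 and 93 UMIs, of which 1 cell held 16 in NAM, and 0.25 with thinned gates) and -0.42 in Ly6c2 monocytes.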

How the results depend on the processing

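No paired analysis was possible because there was 1 library per group. The counts between gates (7 higher and 12 lower in osteoclast-like cells than in macrophages, 2 higher and 0 lower in the Mmp12 than in the Vcam1 subset) stayed within 1.5 times under each alternative run. Counts of genes past the fold in NAM moved more. Gates read from thinned cells were smaller, with 206 and 211 cells in the Vcam1 subset, 74 and 76 proliferating macrophages, 36 and 30 interferon-high macrophages and 53 and 65 osteoclast-like cells, so calls lost with them may be lost to fewer counts. In all macrophages the 4 lower became 2 with gates read from thinned cells or without the 5 cells with most UMIs of the gene, and 1 at 1.5-fold. In the Mmp12 subset the 3 higher became 1 with doubled thresholds and 0 with thinned gates or at 1.5-fold, and the 1 lower became 3 with thinned gates or equal weight of cells, 2 without the 2.5% of cells with most UMIs and 0 at 1.5-fold. In osteoclast-like cells the 0 higher became 4 with thinned gates or equal weight, 3 without the 2.5% deepest cells and 1 without the 5 cells, and the 0 lower became 1 with doubled thresholds or without the 5 cells. In Ly6c2 monocytes doubled thresholds gave 1 higher and 8 lower, equal weight gave 7 lower and 1.5-fold gave 0 lower. In proliferating macrophages the 7 lower became 4 with thinned gates and 3 at 1.5-fold. In T cells the 1 higher became 3 with doubled thresholds, 11 with mixed cells kept, and 0 with thinned gates, with scaling by the median of ratios, without the 2.5% deepest cells or at 1.5-fold, and the 5 lower became 0 with mixed cells kept and 2 without the 5 cells.

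With doubled thresholds the macrophage sums had log2 ratios of 0.0044 (cathepsins), -0.011 (other soluble proteins) and 0.022 (membrane proteins). Scaling by the median of ratios gave 0.048 (cathepsins), -0.020 (glycosidases), 0.030 (other soluble proteins), 0.067 (membrane proteins) and 0.081 (pump subunits), and 2 other lysosomal genes higher in place of 1. Directions turned for Ctsb in Cd209a cells (0.13 with doubled thresholds, 0.23 without 5 cells), Ctsc in mature dendritic cells (-0.43 with doubled thresholds, -1.39 with thinned gates, -1.71 without 5 cells), Ctsd in interferon-high macrophages (0.12 with doubled thresholds, 0.026 with thinned gates), Ctsk in remaining macrophages (0.056 with thinned gates) and Ctsl in T cells (0.41 with mixed cells kept). In T cells Ctss (0.44), Ctsh (0.29) and Grn (0.14) turned as well with mixed cells kept. The cause of these turns was not tested.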

Other observations

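Gm2a was lower in NAM past the fold in each of the 10 separate gates in which it had 50 UMIs, with log2 ratios from -1.07 to -0.35, and Arsb in 5 of 8 gates. Among the 35 genes Ctsb was lower in 5 of 12 gates, Acp5 in 5 of 8 and Ctsd in 4 of 10. Of all genes tested, 5.67% (NK cells) to 14.1% (Cd209a dendritic cells) were lower in a separate gate. The calls of Ctsb in Cd209a dendritic cells and of Ctsd in interferon-high macrophages turned under other processing, as given above. These counts were made after the values were seen.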
